A study of Mus musculus with 6 samples.

Results

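A set of 10 genes was followed: the 4 gasdermin C genes of the mouse (Gsdmc, Gsdmc2, Gsdmc3 and Gsdmc4), gasdermin D (Gsdmd), the 3 Sprr2a genes (Sprr2a1, Sprr2a2 and Sprr2a3), and the interleukin 4 and 13 receptor chains Il4ra and Il13ra1. They were matched by symbol and Ensembl identifier and are 10 of 46078 gene rows in the count table. RNA had been sequenced from the epithelial fraction of the colon, the cells that a wash with EDTA and DTT takes off the tissue, in 3 libraries from wild type mice and 3 from Lingo2-/- mice. All mice were 2 months old and had received no challenge. Lingo2 encodes a membrane protein with leucine-rich repeats, and the labels do not give the allele, the strain or the sex. Replicates carry separate labels, but nothing states that each came from its own animal, so the p-values rest on spread between libraries that could be technical.

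Gasdermins are pore-forming proteins. A protease frees the amino-terminal part, which inserts into membranes, lets interleukin 1 family cytokines out and can kill the cell. Gasdermin D is cut by inflammatory caspases, and gasdermin C by caspase 8. Gasdermin C genes of the gut epithelium are induced by interleukins 4 and 13, the cytokines of the type 2 response to worms, which act through a receptor of Il4ra and Il13ra1 and the transcription factor STAT6. Sprr2a encodes a small proline-rich protein, known as a building block of the cornified envelope in squamous epithelium and as an antibacterial protein in the gut. The comparison asked how each set differed with genotype and between libraries.

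Both families are built of near copies, which limits what short reads can tell apart. On chromosome 15 (GRCm38), Gsdmc lies at chr15:63775968-63808759, Gsdmc2 at chr15:63824346-63845177, Gsdmc3 at chr15:63857724-63878558 and Gsdmc4 at chr15:63891264-63912297, all on the minus strand. Gsdmd lies further along the same chromosome at chr15:75862327-75867408, on the plus strand. The Sprr2a genes lie side by side on the plus strand of chromosome 3, with Sprr2a1 at chr3:92215799-92221911 and Sprr2a3 at chr3:92285417-92291405. The annotated span of Sprr2a2, chr3:92215920-92256724, runs across Sprr2a1, with which it shares 43 exon bases. Il4ra is at chr7:125552120-125579474 and Il13ra1 at chrX:36112110-36171259. The longest transcripts of Gsdmc2 and Gsdmc3 were identical in 96.9% of aligned bases, Gsdmc4 matched them in 92.4% and 92.3%, and Gsdmc matched the other members in 86.0% to 88.6%. The Sprr2a transcripts were closer still, at 99.9% between Sprr2a1 and Sprr2a2 and at 98.9% and 98.8% between these and Sprr2a3.

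The near identity of the Sprr2a genes extends to their promoters, which are shown because the genes nevertheless gave different values in the comparison of genotypes. The windows run from 250 bases before to 50 bases after the RefSeq start (GRCm38.p6), on the strand of the gene. The windows of Sprr2a1 (chr3:92215585-92215884) and Sprr2a2 (chr3:92250397-92250696) were the same in 300 of 300 bases, so 1 copy is printed. That of Sprr2a3 (chr3:92285054-92285353) is set 28 bases further upstream and was identical in all 272 bases that it shares with them. Capitals mark every match to 2 palindromic motifs of the STAT6 type, searched on both strands: TTC and GAA with any 4 bases between them, and TTC and GAA with any 3 bases between them. The window of Gsdmc3 (chr15:63878509-63878808, minus strand), the gasdermin C gene for which RefSeq gave a promoter here, is shown beside them.
Sprr2a1: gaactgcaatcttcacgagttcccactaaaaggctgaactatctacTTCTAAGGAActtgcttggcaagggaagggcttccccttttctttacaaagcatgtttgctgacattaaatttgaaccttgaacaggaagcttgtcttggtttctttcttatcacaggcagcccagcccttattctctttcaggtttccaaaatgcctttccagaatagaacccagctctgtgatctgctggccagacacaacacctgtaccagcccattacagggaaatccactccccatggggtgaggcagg
Sprr2a3: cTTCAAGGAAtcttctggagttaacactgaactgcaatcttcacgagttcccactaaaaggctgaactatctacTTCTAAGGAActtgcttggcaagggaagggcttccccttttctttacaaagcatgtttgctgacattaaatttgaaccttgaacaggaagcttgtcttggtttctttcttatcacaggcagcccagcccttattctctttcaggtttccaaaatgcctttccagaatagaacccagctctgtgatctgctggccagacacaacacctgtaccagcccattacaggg
Gsdmc3: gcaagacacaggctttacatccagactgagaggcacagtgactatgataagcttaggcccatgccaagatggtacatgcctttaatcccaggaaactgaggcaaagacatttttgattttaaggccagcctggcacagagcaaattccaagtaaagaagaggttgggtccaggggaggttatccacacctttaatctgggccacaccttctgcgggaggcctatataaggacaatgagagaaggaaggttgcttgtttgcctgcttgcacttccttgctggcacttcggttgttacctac
The match with 4 bases between, shared by all 3 Sprr2a windows, lies 204 to 195 bases before the start of Sprr2a1 and Sprr2a2 and 176 to 167 bases before that of Sprr2a3. The match with 3 bases between, at 249 to 241 bases before the start of Sprr2a3, falls in the stretch that the windows of the other copies do not reach. No match was present in the windows of Gsdmc3, Il4ra or Il13ra1. Of 32851 promoters of the same length, 6.95% held the motif with 4 bases between and 8.30% that with 3. A match is a run of letters and not a measured binding site.

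Read depth differed with genotype: genes took 25010618 to 28029583 reads per library in wild type but only 7060769 to 13047682 in the mutants. Levels are given as CPM, read counts scaled to a common library size with TMM factors, and values per library are given in the order of replicates 1, 2 and 3. Lingo2 itself was at the detection limit, with 0, 7 and 0 reads in wild type, against 1, 1 and 0 reads in mutant libraries, so the genotype labels could not be checked from it. The filter on low counts was passed by 9 of the 10 genes, and not by Gsdmc. Over the 16757 genes tested with edgeR's quasi-likelihood test, 430 passed an adjusted p of 0.05, which is 2.57% (1.04% higher and 1.52% lower in mutant), and 1 of the 9 members did, with the higher level in mutant. The authors' deposited table called 4.71% of its 14338 genes with an adjusted p, and 4 of the members. The CPM values of the genotypes did not overlap in 24.1% of tested genes (12.3% with mutant above and 11.8% with mutant below) and in 4 of the 9 members, 2 in each direction. Since the members were chosen with results known, nothing is read from these counts.

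Gsdmc3 rose in the mutant libraries, and Gsdmc2 had about the same fold change without passing the test. Gsdmc4, which had the most counted reads of the cluster, varied more between libraries of a genotype. Gsdmc3 stood at 58.9, 35.6 and 32.0 CPM in wild type, against 99.0, 105 and 100.4 CPM in mutant libraries. All mutant libraries lay above all wild type libraries, and the mutant values differed little among themselves (101.6 ± 3.39 CPM, SD, n = 3, against 42.2 ± 14.6 CPM). The log2 fold change was 1.27 ± 0.23 (SE), with an edgeR adjusted p of 0.0428. This call was close to the threshold: without wild type replicate 2 the edgeR adjusted p was 0.105, and without mutant replicate 1, 2 or 3 it was 0.132, 0.122 and 0.149. In bulk RNA a change in the number of cells that express a gene and a change in RNA per cell cannot be told apart, which holds for every value here.

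Gsdmc2 stood at 200.7, 128 and 87.1 CPM in wild type, against 311, 374 and 369 CPM in mutant libraries. The groups did not overlap, but the wild type libraries spanned a wide range with replicate 1 highest and replicate 3 lowest. The log2 fold change was 1.34 ± 0.30 (SE), with an edgeR adjusted p of 0.0905. Without wild type replicate 1 it was 1.70 with an edgeR adjusted p of 0.00112, and without wild type replicate 3 it was 1.09 with an edgeR adjusted p of 0.0121. In the authors' deposited table, Gsdmc2 had a log2 fold change of 1.35 with an adjusted p of 0.00610, and in the authors' deposited table Gsdmc3 had 1.27 with an adjusted p of 5.2e-09.

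Gsdmc4 stood at 367, 185 and 152 CPM in wild type, against 351, 408 and 524 CPM in mutant libraries. Wild type replicate 1 exceeded mutant replicate 1, so the groups overlapped. The log2 fold change was 0.87 ± 0.38 (SE), with an edgeR adjusted p of 0.305. Without wild type replicate 1 the value was 1.34 with an edgeR adjusted p of 0.00386, so that 1 library set whether Gsdmc4 passed. Wild type replicate 1 was the highest wild type library for each of these 3 genes, and wild type replicate 3 the lowest.

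Gsdmc, the remaining gasdermin C gene, was at the detection limit, with 2, 0 and 0 reads in wild type, against 0, 2 and 0 reads in mutant libraries. Pooled over a genotype this is 0.0278 CPM in wild type (0.00336 to 0.10, the 95% exact Poisson interval) and 0.0642 CPM in mutant (0.00777 to 0.232), intervals that cover counting error only. A difference in Gsdmc was not detectable at this depth. Of its transcript 50-mers, 83.9% occurred in no other annotated gene, so its reads can be told from those of the other copies more often than theirs can: the share was 48.7% for Gsdmc2, 54.0% for Gsdmc3 and 61.0% for Gsdmc4. The read length is not given in the sources used here, and with 100-mers these shares were 93.0%, 71.4%, 71.6% and 79.8%.

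**Figure D1:**
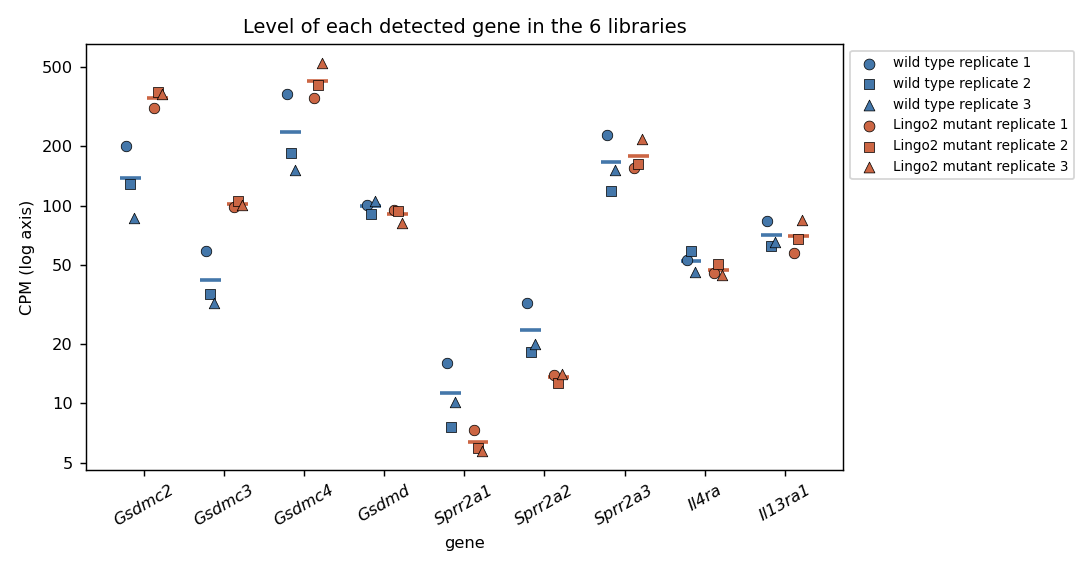
Level of the 9 genes that passed the filter, as CPM on a log axis. Each point is a library, with the replicate number as its shape and the genotype as its colour, and bars are means of 3 libraries. The mutant points of Gsdmc2 and Gsdmc3 lie above all wild type points, those of Sprr2a1 and Sprr2a2 lie below, and the other genes overlap.

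Summed over the 4 genes, the gasdermin C cluster reached 627, 349 and 271 CPM in wild type, against 761, 888 and 993 CPM in mutant libraries. Each mutant library lay above each wild type library, and the ratio of the means was 2.12 (415.5 ± 187 CPM against 881 ± 116 CPM, SD, n = 3). The sum was not tested, because its members were chosen with results known. It is less exposed than single genes to reads being moved between copies, but reads that match several copies may be missing from it. Leaving out 1 library at a time, the log2 ratio of the sums ranged from 0.85 to 1.51.

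The make-up of the cluster also differed between the libraries. Gsdmc4 took 58.6%, 53.0% and 56.1% of the cluster's reads in wild type, against 46.1%, 46.0% and 52.8% in mutant libraries, without overlap, although the highest mutant value was close to the lowest of wild type. Gsdmc2 took 32.0%, 36.8% and 32.1% in wild type, against 40.9%, 42.1% and 37.1% in mutant libraries, again without overlap and with a small gap. The share of Gsdmc3 was 9.40% to 11.8% and 10.1% to 13%, with overlap. Per length of transcript, as TPM, which also divides by exon length and compares genes within a library, the ratio of Gsdmc2 to Gsdmc4 was 0.493, 0.626 and 0.516 in wild type, against 0.799, 0.826 and 0.634 in mutant libraries. These shares and ratios are descriptions and were not tested, and how often those of other genes do not overlap was not computed.

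Among the relatives of the cluster, 2 transcribed pseudogenes on the opposite strand had enough reads to be tested. Gsdmcl2 stood at 15.5, 8.99 and 6.39 CPM in wild type, against 15.0, 21.2 and 27.3 CPM in mutant libraries, with a log2 fold change of 1.03 ± 0.39 (SE) and an edgeR adjusted p of 0.250, which became 0.0499 without wild type replicate 1. Gsdmcl-ps stood at 3.59, 2.76 and 1.62 CPM and at 5.03, 4.86 and 4.05 CPM, with 0.82 ± 0.27 (SE) and an edgeR adjusted p of 0.135. Neither passed the edgeR test with the filter, but DESeq2 as run here called Gsdmcl2 (adjusted p of 0.00731), and edgeR without the filter called Gsdmcl-ps (adjusted p of 0.0201). The authors' deposited table called neither, with an adjusted p of 0.188 for Gsdmcl2 and 0.105 for Gsdmcl-ps. In both, wild type replicate 1 was again the highest and replicate 3 the lowest of wild type, and for Gsdmcl2 the groups overlapped. The setting for strand in the counting is not given in the sources used here. With both pseudogenes added to the sum, a choice made after seeing the data, the log2 ratio was 1.08, as without them. Gsdmcl1 had 1 read in each genotype.

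Gasdermin D, the gasdermin of inflammasome pyroptosis, was steady across libraries. Gsdmd stood at 101, 91.0 and 105 CPM in wild type, against 95.1, 93.7 and 82.1 CPM in mutant libraries. The groups overlapped, and the log2 fold change was -0.13 ± 0.10 (SE), with an edgeR adjusted p of 0.490. Its highest library exceeded its lowest by 1.28-fold, against 3.29-fold for Gsdmc3 and 3.44-fold for Gsdmc4. No other annotated gene shared a 50-mer with Gsdmd. Gsdme, which caspase 3 cuts, stood at 25.1 ± 2.45 CPM and 21.8 ± 3.11 CPM (SD, n = 3), with a log2 fold change of -0.19 ± 0.12 (SE) and an edgeR adjusted p of 0.427. Gsdma had -0.13 ± 0.30 (SE) with an edgeR adjusted p of 0.854, and this sign turned without wild type replicate 1 or mutant replicate 3. Gsdma3 had no read in any library. Of the 11 listed gasdermin genes, 6 were tested, 1 rose and none fell, with a median log2 fold change of 0.37 beside 0.00098 over all tested genes. Of all tested genes, edgeR called 1.04% higher and 1.52% lower in mutant. The cluster's TPM was 6.77, 4.16 and 2.81 times that of Gsdmd in wild type, against 8.63, 10.2 and 13.1 times in mutants.

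The Sprr2a genes did not move as a set: none passed the test, Sprr2a1 and Sprr2a2 were lower in all mutant libraries, and Sprr2a3, which held most of the reads, overlapped between genotypes. Sprr2a3 stood at 227, 119 and 152 CPM in wild type, against 156, 163 and 218 CPM in mutant libraries. The highest library was wild type replicate 1 and the next mutant replicate 3, so the spread within each genotype exceeded the gap between the means. The log2 fold change was 0.11 ± 0.26 (SE), with an edgeR adjusted p of 0.859, and its sign turned without wild type replicate 2 (-0.086) or mutant replicate 3 (-0.066).

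Sprr2a2 stood at 32.2, 18.3 and 20.1 CPM in wild type, against 14.0, 12.7 and 14.1 CPM in mutant libraries. All mutant libraries lay below all wild type libraries, and the log2 fold change was -0.78 ± 0.21 (SE), with an edgeR adjusted p of 0.101. Without wild type replicate 2 it was -0.94 with an edgeR adjusted p of 0.0360, and with the replicate number as a block it was -0.76 with an edgeR adjusted p of 0.0349. Sprr2a1, the copy with the fewest counted reads, stood at 16.01, 7.65 and 10.2 CPM in wild type, against 7.31, 5.98 and 5.78 CPM in mutant libraries. The gap between the groups was narrow, from 7.65 to 7.31 CPM. Its log2 fold change was -0.80 ± 0.27 (SE), with an edgeR adjusted p of 0.159, and without wild type replicate 2 it was -1.03 with an edgeR adjusted p of 0.0352. The authors' deposited table called both, with log2 fold changes of -0.81 for Sprr2a1 (adjusted p of 0.0464) and -0.78 for Sprr2a2 (adjusted p of 0.00897).

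Sprr2a1 and Sprr2a2 could hardly be counted apart. Only 3.72% of the 50-mers of Sprr2a1 and 3.53% of those of Sprr2a2 occurred in no other annotated gene, against 38.9% for Sprr2a3, and with 100-mers the shares were 7.51%, 7.19% and 63.8%. The ratio of Sprr2a2 to Sprr2a1 reads, 2.01, 2.39 and 1.97 in wild type, against 1.92, 2.13 and 2.44 in mutant libraries, overlapped between genotypes. Since the counts hardly tell these copies apart, this ratio cannot show whether the genes varied together. The ratio of Sprr2a3 to both others did not overlap. It was 4.72, 4.58 and 4.999 in wild type, against 7.31, 8.71 and 11.0 in mutant libraries. None of these ratios was tested. As a share of Sprr2a reads, Sprr2a3 held 82.6 ± 0.63% in wild type, against 89.8 ± 1.84% in mutant libraries (SD, n = 3). The wild type shares lay within a narrow range although the levels of Sprr2a3 in the same libraries differed by up to 1.91-fold. Alignments that were not unique made up 36.5% to 36.9% of the total in wild type, against 30.8% to 33.9% in mutant libraries, and the part of this in the Sprr2a and gasdermin C counts was not tested.

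**Figure D2:**
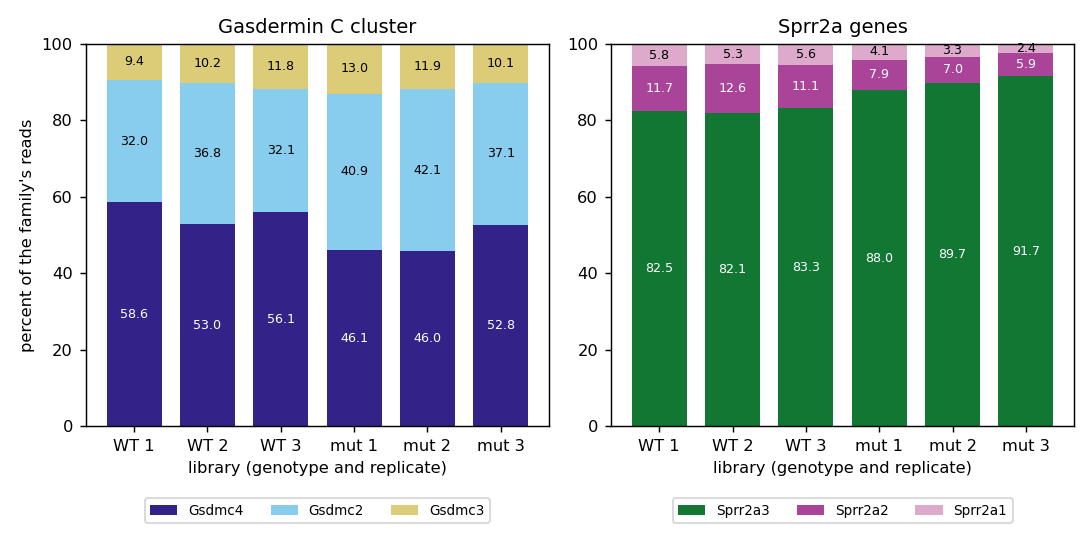
Percent of each family's reads that fell on each of its genes, per library (WT, wild type, and mut, Lingo2-/-, with replicate numbers). Gsdmc, at 0.0281% or less, is too thin to see. The share of Sprr2a3 is 82.1% to 83.3% in wild type, against 87.97% to 91.7% in mutant libraries, and that of Gsdmc4 is 53.0% to 58.6% and 46.0% to 52.8%.

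Other small proline-rich genes were few. Of the 15 listed genes of the family, 4 were tested and none passed edgeR's adjusted threshold. An unadjusted p under 0.05 was found in 3, from which nothing is read without the share of all tested genes at that level. Limma voom called none and DESeq2 called 3 (Sprr1a, Sprr2a1 and Sprr2a2), of 656 genes that DESeq2 called in all. No read fell in any library on 9 genes (Sprr2d, Sprr2e, Sprr2f, Sprr2g, Sprr2i, Sprr2k, Sprr1b, Sprr3 and Sprr4). The median log2 fold change of the 4 was -0.34. Sprr1a, a cornified envelope precursor, stood at 7.96, 6.82 and 5.71 CPM in wild type, against 12.6, 8.60 and 11.5 CPM in mutant libraries. The groups did not overlap, with mutant above wild type, opposite in direction to Sprr2a1 and Sprr2a2. Its log2 fold change was 0.69 ± 0.18 (SE), with an edgeR adjusted p of 0.0620, and in the authors' deposited table it was 0.69 with an adjusted p of 0.0302. Sprr2b had 10 and 4 reads and Sprr2h 1 and 3 reads over the wild type and the mutant libraries. Of 12 markers of squamous epithelium, where cornified envelopes form, 9 were below the filter and Krt5 had no read, and their summed level was 4.56 to 11.9 CPM in wild type, against 5.38 to 6.11 CPM in mutant libraries.

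Set side by side, the summed gasdermin C cluster separated the genotypes and the summed Sprr2a genes did not. The Sprr2a sum was 275.5, 145 and 182 CPM in wild type, against 177, 181.5 and 238 CPM in mutant libraries (200.7 ± 67.4 against 198.9 ± 34.1 CPM, SD, n = 3). The log2 ratio of its means was -0.01, and leaving out 1 library at a time it ranged from -0.20 to 0.28. The SD of the log2 sums within genotypes was 0.459 for the gasdermin C cluster and 0.373 for Sprr2a. Wild type replicate 1 was the highest wild type library in both, and mutant replicate 3 the highest mutant library. Within a library, the ratio of the cluster to Sprr2a in TPM was 3.02, 3.18 and 1.98 in wild type, against 5.64, 6.41 and 5.50 in mutant libraries. This ratio did not overlap between genotypes. Neither did that of Gsdmc4 to Sprr2a3, the gene of each family with the most counted reads, at 1.39 to 2.23 and 3.11 to 3.47. The ratios were not tested, their genes were chosen with results known, and how often ratios of other genes do not overlap was not computed.

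**Figure D3:**
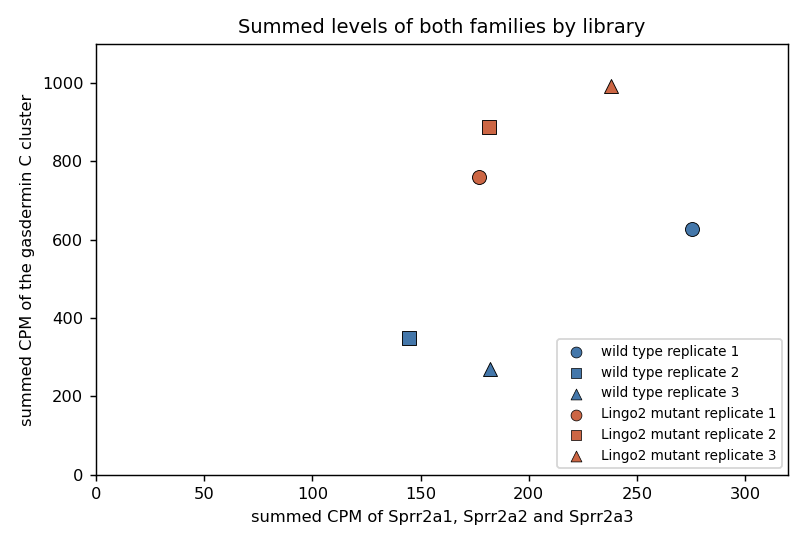
Summed CPM of the gasdermin C cluster (vertical axis) against the summed CPM of Sprr2a1, Sprr2a2 and Sprr2a3 (horizontal axis), 1 point per library. The mutant points, at 761 to 993 CPM, lie above the wild type points, at 271 to 627 CPM, while on the horizontal axis the mutant points, at 177 to 238 CPM, lie inside the wild type range of 145 to 275.5 CPM.

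The receptor chains of the members did not differ beyond their spread. Il4ra, the chain that binds interleukin 4 and is shared by both receptor types, stood at 53.0, 58.7 and 46.0 CPM in wild type, against 45.5, 51.0 and 44.8 CPM in mutant libraries. The groups overlapped, and the log2 fold change was -0.16 ± 0.11 (SE), with an edgeR adjusted p of 0.448. Il13ra1, which joins Il4ra in the receptor of epithelial cells for both cytokines, stood at 84.1, 62.6 and 65.8 CPM and at 57.6, 68.2 and 84.9 CPM. Wild type replicate 1 and mutant replicate 3 were high and mutant replicate 1 was low, so the groups covered the same range. The log2 fold change of Il13ra1 was -0.02 ± 0.16 (SE), with an edgeR adjusted p of 0.969, and its sign turned under 3 alternatives. An antisense gene overlaps 9.51% of the exon bases of Il4ra. The ratio of Il4ra to Il13ra1 in TPM was 0.3898 to 0.580 in wild type, against 0.326 to 0.489 in mutant libraries, so Il13ra1 was the more abundant chain per length in all 6.

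The other chains of the receptors are partly those of immune cells. Il2rg, the common gamma chain that pairs with Il4ra in lymphocytes, stood at 3.68, 4.89 and 4.60 CPM in wild type, against 1.79, 1.75 and 1.39 CPM in mutant libraries. It fell without overlap between the groups, with a log2 fold change of -1.40 ± 0.23 (SE) and an edgeR adjusted p of 0.00810. Markers of T cells and intraepithelial lymphocytes, a lineage that expresses Il2rg, fell in 12 of 12 genes (11 with some libraries left out, Ptprc being lost), with a summed level of 465 to 555 CPM in wild type, against 197 to 228 CPM in mutant libraries. Their part in the value of Il2rg was not tested. Il13ra2, the decoy chain, had no read, which allows up to 0.0416 CPM over the wild type and 0.0962 CPM over the mutant libraries at 3 reads. Of the 4 chains, 3 were tested, none rose and 1 fell, with a median log2 fold change of -0.16. Over all tested genes, edgeR called 1.04% higher and 1.52% lower in mutant.

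The ligands of the type 2 response were near the detection limit. Over the 3 wild type and the 3 mutant libraries, Il4 had 14 and 8 reads, Il13 had 2 and 2, Il5 had 1 and 1, Il25 had 5 and 3, Tslp had 8 and 4, and Il9 had none. At this depth no difference was detectable in these 6 genes. Il33, an alarmin, was the 1 tested ligand of 7, at 4.46, 4.10 and 1.70 CPM in wild type, against 1.17, 2.24 and 1.504 CPM in mutant libraries. Its groups overlapped through wild type replicate 3, and the log2 fold change was -1.12 ± 0.41 (SE), with an edgeR adjusted p of 0.178. Without that library it was -1.44 with an edgeR adjusted p of 0.0170.

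Of the 11 genes that carry or limit the signal below the receptors, all were tested. None was called by edgeR, limma voom or DESeq2. By edgeR 3 had an unadjusted p under 0.05, a count with no share of all tested genes to read it by. The median log2 fold change of the 11 was -0.12, and 2 of 11 values were above 0. In 4 genes all mutant libraries lay below all wild type libraries, against 11.8% of all tested genes. Stat6, the factor that interleukins 4 and 13 activate, named here for that role after its values were seen, stood at 75.6 ± 3.25 CPM in wild type, against 69.8 ± 0.64 CPM in mutant libraries (SD, n = 3), with an edgeR adjusted p of 0.487. The smallest p-values belonged to Stat3, with a log2 fold change of -0.28 ± 0.09 (SE) and an edgeR adjusted p of 0.136, and to Jak1, a kinase bound to the receptors, with -0.24 ± 0.09 (SE) and an edgeR adjusted p of 0.170. RNA levels do not report the activity of these proteins.

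Among the 17 listed epithelial genes that interleukins 4 and 13 are known to induce, 14 were tested, 1 rose and none fell. Limma voom called 5 and DESeq2 4, all higher in mutant. Over all genes, those called higher in mutant were 1.04% by edgeR, 154 genes by limma voom and 249 by DESeq2. The list was chosen with results known, so nothing is read from these counts. The median log2 fold change of the 14 was 0.59, and 11 of 14 values were above 0, beside 50.1% of all tested genes. Itln1, a lectin of goblet and Paneth cells, rose from 4.37, 4.81 and 4.86 CPM in wild type to 22.8, 42.8 and 53.8 CPM in mutant libraries. All mutant libraries lay above wild type, with a log2 fold change of 3.07 ± 0.34 (SE) and an edgeR adjusted p of 0.0118, but without wild type replicate 1 or 2 this became 0.0720 and 0.0644. Pla2g4c, a cytosolic phospholipase, stood at 10.5, 5.63 and 1.36 CPM in wild type, against 39.6, 76.3 and 96.3 CPM in mutant libraries. Wild type replicate 3 was the lowest wild type library and mutant replicate 3 the highest of all, and the log2 fold change was 3.60 ± 0.75 (SE), with an edgeR adjusted p of 0.101. Ang4, an antimicrobial ribonuclease, stood at 159, 145 and 60.4 CPM in wild type, against 468, 578 and 870 CPM in mutant libraries. The groups did not overlap, and its edgeR adjusted p was 0.0818, which became 0.00470 without wild type replicate 3.

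Retnlb, the goblet cell product RELMβ, and Clca1, a mucus protein, are named after their values were seen. Retnlb stood at 75.9, 133 and 37.5 CPM in wild type, against 344, 560 and 936 CPM in mutant libraries. Clca1 stood at 2807, 1420 and 1555 CPM and at 3098, 3639 and 5913 CPM. Both had mutant libraries above all wild type libraries, with edgeR adjusted p-values of 0.113 and 0.129, and Clca1 came to 0.0236 without wild type replicate 1. Mutant replicate 3, the highest library for Gsdmc4, was the highest for all 5 of these genes, while Gsdmc3 was nearly level over the mutant libraries. Muc2, the main mucin of the colon, had a log2 fold change of 0.05. Of 11 goblet markers, 4 rose by edgeR, beside 1.04% of all tested genes. These were Spdef, Atoh1, Spink4 and Foxa3, and Foxa3 did not pass without wild type replicate 2 or mutant replicate 1 or 3. The summed level of the 11 markers was 13620 to 16420 CPM in wild type, against 16400 to 22940 CPM in mutant libraries. Zg16 and Tff3, 2 other goblet markers named after their values were seen, had log2 fold changes of -0.42 and -0.32, and without wild type replicate 2 edgeR called Zg16 lower in mutant. Clca1, Fcgbp, Muc2 and Tff3 belong to both lists. The part of goblet cell number in the gasdermin C and type 2 values was not tested.

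**Figure D4:**
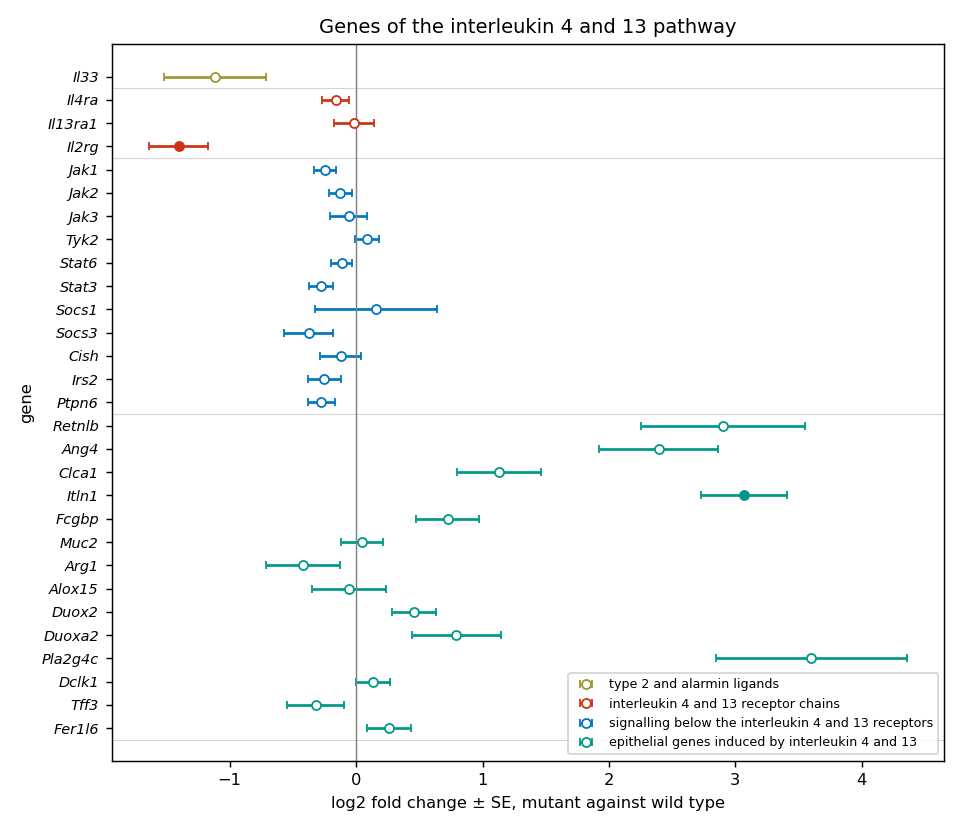
Log2 fold change with its SE for the tested genes of 4 lists: ligands, receptor chains, signalling genes, and epithelial genes induced by interleukins 4 and 13. Filled points passed the edgeR test (Il2rg at -1.40 and Itln1 at 3.07), and the signalling genes lie near 0.

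For the proteases that cut gasdermins and other genes of pyroptosis, 19 of 23 listed genes were tested and none was called by edgeR, limma voom or DESeq2. By edgeR 3 of the 19 had an unadjusted p under 0.05, which is read no further without the share of all tested genes. The median log2 fold change of the 19 was -0.12, and 4 of 19 values were above 0, beside 50.1% of all tested genes. In 5 genes all mutant libraries lay below all wild type libraries, against 11.8% of all tested genes. Casp8, which cuts gasdermin C and is named for that role after its values were seen, stood at 101, 94.7 and 94.5 CPM in wild type, against 89.4, 90.9 and 87.3 CPM in mutant libraries. The groups did not overlap, but the log2 fold change of Casp8 was -0.12 ± 0.08 (SE), with an edgeR adjusted p of 0.478. Il1b, a cytokine that leaves cells through gasdermin pores, had the smallest p-value of the list. It had 47, 55 and 54 reads in wild type, against 21, 2 and 6 in mutant libraries, with a log2 fold change of -1.27 ± 0.39 (SE) and an edgeR adjusted p of 0.110, which became 0.0289 without mutant replicate 1.

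The fraction carried the markers its label names. Epithelial identity genes summed to 4327 to 5252 CPM in wild type, against 4307 to 5185 CPM in mutant libraries, with none of 11 called by edgeR. Markers of absorptive colonocytes summed to 8344 to 9668 CPM and 6214 to 8165 CPM, those of tuft cells to 73.8 to 90.8 CPM and 84.6 to 104 CPM, those of macrophages and granulocytes to 81.1 to 99.0 CPM and 65.4 to 123 CPM, and those of type 2 lymphoid cells to 41.8 to 51.5 CPM and 35.5 to 51.6 CPM, and edgeR called no gene of these lists. At an unadjusted p under 0.05 edgeR had 1 of 11 epithelial identity genes, 3 of 11 absorptive and 5 of 11 tuft genes. It had 3 of 10 macrophage and granulocyte and 3 of 6 type 2 lymphoid genes at that level. The share of all tested genes at that level was not computed, so nothing is read from these counts. Log2 fold changes were above 0 in 6 of 11 epithelial identity, 1 of 11 absorptive and 10 of 11 tuft genes. They were above 0 in 3 of 10 macrophage and granulocyte and 1 of 6 type 2 lymphoid genes, beside 50.1% of all tested genes. DESeq2 called 3 absorptive genes (Ceacam1 and Cyp2c55 lower and Guca2b higher in mutant), of 656 genes in all, and limma voom none of these 3. The part of these cell types in the values of the gasdermin C and Sprr2a genes was not tested.

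Per length, the members kept their order between genotypes except that Gsdmc3 stood below Gsdmd and Il13ra1 in wild type and above both in mutant libraries. The order is that of counted reads. Copies that share much of their sequence with another gene may have lost reads, which was not corrected for. In wild type the means in TPM were 183.8 ± 82.8 for Gsdmc4, 98.3 ± 37.4 for Gsdmc2, 94.2 ± 27.2 for Sprr2a3, 68.9 ± 3.67 for Gsdmd, 31.4 ± 3.74 for Il13ra1, 29.7 ± 9.04 for Gsdmc3, 14.5 ± 2.22 for Il4ra, 13.2 ± 3.64 for Sprr2a2 and 6.15 ± 2.05 for Sprr2a1 (SD, n = 3). Within single wild type libraries, Gsdmc4 was above Gsdmc2 and Sprr2a3 above Gsdmd in all 3, while the order of Gsdmc2 and Sprr2a3, of Il13ra1 and Gsdmc3, and of Il4ra and Sprr2a2 differed from library to library. In mutant libraries the means were 420 ± 49.2 for Gsdmc4, 314 ± 36.9 for Gsdmc2, 127 ± 11.2 for Sprr2a3, 90.6 ± 10.4 for Gsdmc3, 79.2 ± 13.5 for Gsdmd, 38.8 ± 4.46 for Il13ra1, 16.3 ± 2.51 for Il4ra, 9.68 ± 0.77 for Sprr2a2 and 4.41 ± 0.87 for Sprr2a1, and Gsdmc3 was above Gsdmd in all 3 mutant libraries. By mean TPM, Gsdmc3 ranked 1410 of 45229 genes in wild type, against 499 in mutant, and Gsdmc4 ranked 194 and 97. TPM carries no TMM factor, so TPM means serve to compare genes and not genotypes. Gsdmd, for instance, had the higher mean in mutant libraries by TPM but the lower by CPM (90.3 ± 7.11 against 99.1 ± 7.32 CPM, SD, n = 3).

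Among 12968 genes with a mean log2 CPM of at least 1, the 5 whose log2 CPM followed the summed gasdermin C cluster most closely over the 6 libraries were Adam22 (Pearson r of 0.996), Clca2 (0.994), Rfxap (0.990), Mrps25 (0.990) and Gne (0.988). For the summed Sprr2a genes they were Oxct1 (0.981), Pgam1 (0.980), Gm16341 (0.978), Ralb (0.978) and Serpinb1a (0.978). The lists shared no gene. With 6 libraries that share depth and genotype and 12968 genes to choose from, values this high describe these libraries and carry no test. Clca2 was the 1 gene of the 10 with a mean level that more than doubled, from 3.25 to 7.10 CPM, with an edgeR adjusted p of 0.0585.

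**Figure D5:**
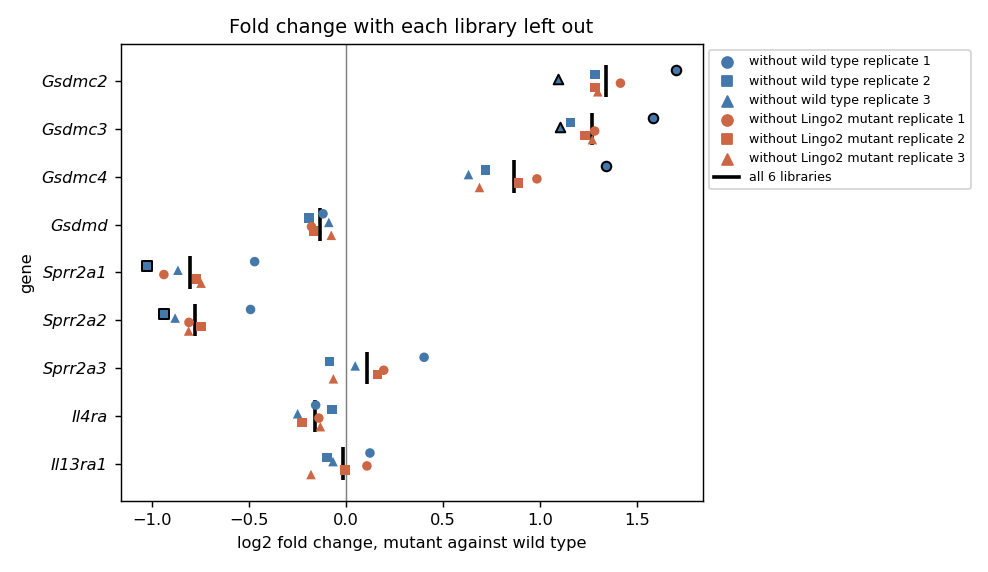
Log2 fold change of each tested member with 1 library left out, beside the value from all 6 (black bar). Points ringed in black passed the edgeR test. Without wild type replicate 1 all 3 gasdermin C genes passed, without wild type replicate 2 Sprr2a1 and Sprr2a2 did and no gasdermin gene, and without any 1 mutant library no member passed.

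The left-out values show that the calls of both families turned on which library was absent, while the directions of Gsdmc2, Gsdmc3, Gsdmc4, Sprr2a1 and Sprr2a2 held in all 6. Without wild type replicate 1, the highest wild type library of both families, the values of Sprr2a1 and Sprr2a2 came to -0.47 and -0.49 and that of Sprr2a3 to 0.40. Leaving it out thus moved the gasdermin C genes away from 0 and Sprr2a1 and Sprr2a2 toward it.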

How the data were processed

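Total RNA libraries of 3 wild type and 3 Lingo2-/- colon epithelial fractions were made with a stranded kit after ribosomal RNA removal, per the labels' protocols. Per the submitters' processing notes, the authors used Trimmomatic 0.39, STAR, HTSeq and DESeq2 with build GRCm38. The sources used here do not give the annotation release, strand setting or read length. The authors deposited whole-number read counts per gene, with 5 summary lines that name no gene. These lines were left out: reads in no feature were 18.5% to 22.1% of the total in wild type, against 23.6% to 27.6% in mutants, and ambiguous reads were 1.23% to 1.28%, against 1.34% to 1.57%. The authors' deposited comparison holds normalized signal (each count times 1 factor per library, at a relative tolerance of 1e-06), log2 fold changes with errors, a test score and p-values.

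The test of the counts was that of edgeR 4.0.16 under R 4.3.3 (filterByExpr, TMM, robust quasi-likelihood F test on genotype), with the Benjamini-Hochberg adjustment over all 16757 tested genes. A gene is called at an edgeR adjusted p under 0.05. The share of all tested genes at an unadjusted p under 0.05 was not computed, so nothing is read from list counts at that level. The script was tested on simulated data of 16757 genes. It called 63% of 100 2-fold and 91% of 100 4-fold changes, with 15 false calls among the unchanged genes. Changes near 2-fold can thus be missed, and a call can be false. The SE is the absolute log2 fold change over the root of the F value. CPM is scaled to the TMM library size, so 3 reads, the limit that a count of 0 allows, are 0.112 to 0.138 CPM per wild type and 0.207 to 0.374 CPM per mutant library, for counting error only. TPM uses exon lengths of GENCODE M21 (GRCm38) and compares genes within a library. Shared k-mers and identity were computed on its transcripts in place of proteins, which were not used here. Promoters are from RefSeq, for 6 of the 10 members. Alternatives, tried one at a time, included limma 3.58.1 voom and DESeq2 1.42.0.

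Members, lists and alternatives were chosen with earlier results of these data known. Named genes are the members and their detected relatives, each called gene of the 7 pathway lists with up to 2 uncalled genes of smallest p per list, and the 5 genes most alike each family's sum. A gene so chosen is not reported here. Genes named for another reason were chosen after their values were seen, among them Muc2, Fcgbp, Ptprc, Krt5, Ceacam1, Cyp2c55 and Guca2b. Other goblet markers are those called in their list or stated as chosen after their values were seen.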

Additional observations from a re-analysis of the deposited data

How the results depend on the processing

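The count of genes called (430) was 1493 without the filter on low counts and 656 with the DESeq2 Wald test, and 174 to 674 with 1 library left out. The members called (1, Gsdmc3) numbered 3 without the filter, 2 with dispersions that are not robust, 2 with limma voom, 4 with DESeq2 (Gsdmc2, Gsdmc3, Sprr2a1 and Sprr2a2), and 0 to 3 with 1 library left out. With the replicate number as a block 2 members passed, Gsdmc3 and Sprr2a2, of 360 genes called. The labels state no pairing. The deviations of same-numbered libraries correlated at -0.126, 0.128 and -0.022, and not every library correlated best with its own number. With deviations taken within groups of 3, such weak values cannot settle whether the numbers mark pairs. Signs turned for Il13ra1 (0.023 with limma voom, and -0.18 to 0.12 with 1 library left out, above 0 without wild type replicate 1 or mutant replicate 1), for Sprr2a3 (-0.086 to 0.40 with 1 library left out, lowest without wild type replicate 2, and also below 0 without the mutant library 3), and for Gsdma (-0.54 to 0.12 with 1 library left out, above 0 without wild type replicate 1 or mutant replicate 3). The causes were not tested. Over 15 alternatives, Gsdmc3 and Gsdmc2 kept their direction. The edgeR adjusted p of Gsdmc3 ran from 1.13e-16 (without the filter, where 1493 genes were called) to 0.149 (without mutant replicate 3). Its next smallest adjusted p was 6.23e-09, with DESeq2. For Gsdmc2 the edgeR adjusted p ran from 0.00112 (without wild type replicate 1) to 0.255 (without wild type replicate 2), and it was 0.186 without the filter. The log2 fold change ran from -0.19 to -0.08 for Gsdmd and from -0.25 to -0.07 for Il4ra. The lower depth of the mutant libraries limits Gsdmc, the ligands and Il13ra2.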
